A study of Homo sapiens with 6 samples.

Results

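The genes described here are the small nucleolar RNA (snoRNA) host genes and their kin: the rows of the gene table named SNHG followed by a number, together with GAS5, ZFAS1, DANCR, EPB41L4A-AS1 and MIR17HG. There were 27 of them among 58174 rows. They were measured in the established human lung adenocarcinoma cell line PC9. The knockdown group had received an antagomir directed at tsRNA-5001a and the control group a negative control antagomir. Antagomirs are modified antisense oligonucleotides that block small RNAs, and tsRNAs are fragments of transfer RNAs. All cells of both groups had received an antagomir, and each group had 3 libraries. The question of the comparison was which RNAs differ when tsRNA-5001a is blocked. Gene counts do not measure the tsRNA, and its knockdown was not checked here. Nothing in the labels says that libraries are from separate cultures, so the p-values reflect a spread between libraries that may be technical only.

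A snoRNA host gene is transcribed into a long RNA whose introns hold snoRNAs. The introns are cut out and trimmed to snoRNAs, which guide the methylation or pseudouridylation of ribosomal RNA, and the exons are joined into a spliced RNA that is usually not translated into a known protein. Many such genes start in a pyrimidine-rich 5′ terminal tract of the kind found in ribosomal protein genes, and the spliced RNAs of several, GAS5 among them, are read by ribosomes and degraded by nonsense-mediated decay. GAS5 was named for its accumulation in growth-arrested cells. MIR17HG stands apart, since its RNA carries the miR-17-92 cluster of microRNAs in place of snoRNAs.

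Total gene counts ran from 32342017 to 40066223 per library. These are gene totals, and all members together took 0.0760% to 0.0919% of the counts of a library. Epithelial markers were high in every library, with KRT8 between 3060 and 5010 CPM (counts scaled to the TMM-adjusted library total) and EPCAM between 175 and 265 CPM. The lung lineage gene NKX2-1 was low throughout, at 0.564 to 0.912 CPM in the knockdown libraries and 0 to 0.372 CPM in the controls, and SFTPB was at 0 counts in 5 of 6. Of markers of other cells, the leukocyte gene PTPRC and the fibroblast gene COL3A1 were at most 0.677 and 0.106 CPM. The endothelial gene PECAM1 was at 9.08 to 13.4 CPM and the fibroblast gene COL1A1 at 35.4 to 52.1 CPM, and their part in the results was not tested. In bulk samples such as these, fewer cells expressing a gene and less RNA per cell cannot be told apart.

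SNHG12 was the member that passed the test. Its RNA averaged 16.1 ± 2.55 CPM in the control libraries and 29.8 ± 2.21 CPM in the knockdown libraries (SD, n = 3), a ratio of 1.85. The counts (as CPM) of GAS5, ZFAS1 and SNHG15 stood lower in every knockdown library than in any control library, and those of SNHG26, SNHG21 and EPB41L4A-AS1 stood higher, but none of these 6 passed the test across all genes. Of 25 members tested, 1 rose and 0 fell at a Benjamini-Hochberg adjusted p of 0.05 with edgeR's quasi-likelihood test, against 1.17% of all 19040 genes tested (1.10% higher and 0.0735% lower). DESeq2 also called 1 member, and 3.69% of all genes. At an unadjusted p under 0.05, 2 members were higher and 3 lower, where 9.77% of all genes were higher and 6.71% lower (16.5% in all). The groups were fully apart for 7 members, 4 higher and 3 lower, and for 24.3% of all genes (13.4% higher and 10.8% lower). Among the 8282 genes of 4 to 8 log2 CPM, a range that holds the members' median abundance of 4.39, 0.29% rose and 0.0966% fell. In that range 4.78% were higher and 8.37% lower at an unadjusted p under 0.05, and 7.33% were higher and 15.2% lower without overlap. Scarcer members lie below the range, among them SNHG26, SNHG21 and EPB41L4A-AS1 (means of 4.51, 2.93 and 14.6 CPM), so its shares are no background for them. The median log2 fold change of the 25 members was 0.01, beside 0.05 over all genes tested. SNHG14 and SNHG22 fell below the filter on low counts and were not tested.

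**Figure D1:**
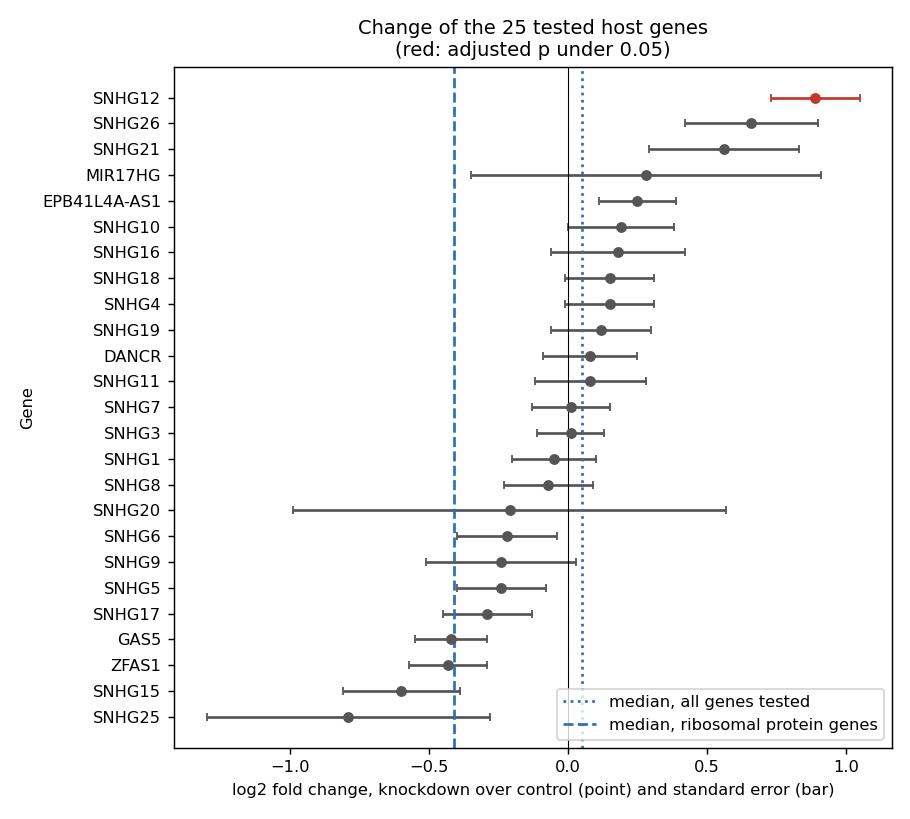
log2 fold change of each of the 25 tested host genes, knockdown over control (horizontal axis; points), with its standard error (bars); vertical lines give the medians of all genes tested (0.05) and of cytosolic ribosomal protein genes (-0.41). SNHG12, at 0.89, is the only point in red, which marks an adjusted p under 0.05, and most of the others lie within 0.30 of 0 on either side.

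SNHG12 (ENSG00000197989) lies on chromosome 1 at 28578538 to 28582983 on the minus strand, in coordinates of the table that match GRCh38. Its RNA has been studied as a long noncoding RNA in several tumour types. In library order, it had 1098, 957 and 1377 counts after knockdown against 604, 601 and 517 in the controls. Scaled for depth this was 29, 28.2 and 32.3 CPM against 16.1, 18.6 and 13.5 CPM. The lowest knockdown library was thus well above the highest control, with no overlap. The log2 fold change was 0.89 (standard error, SE, 0.16), at an adjusted p of 0.0455 by edgeR. This call lies close to the threshold: leaving out any of the 6 libraries ended it, with adjusted p from 0.0826 to 0.195, while the log2 fold change stayed between 0.78 and 1.0. DESeq2 size factors (adjusted p 0.0544) and testing without a filter (0.0651) also ended it, and DESeq2's own test gave 0.000519.

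On the authors' deposited TPM scale, which corrects for transcript length, the difference at SNHG12 was larger. TPM was 66.7, 68.6 and 76.8 after knockdown against 32.3, 31.5 and 27.2 in the controls, a ratio of 2.33. On that scale the median of all tested genes was itself shifted upward by 0.21 (log2), so 1.19 for SNHG12 compares with 0.21 for the typical gene. The transcript length implied by its count and FPKM was 756, 781 and 772 bases after knockdown against 823, 852 and 792 bases in the controls, shorter in every knockdown library than in any control. GENCODE 29 lists 17 transcripts of SNHG12, from 389 to 1998 bases. For SNHG19, which has 1 transcript of 342 bases, the same calculation gave 340 or 341 bases in every library. SNHG19 belongs to the genes of 1 transcript on which the calculation was scaled, so its value is no check on SNHG12. Groups were also fully apart, but longer after knockdown, for GAS5 (698, 703 and 701 against 690, 685 and 691 bases). The same held for SNHG18 (1699, 1755 and 1639 against 1468, 1563 and 1613 bases). The share of all genes with such a separation was not examined, so it cannot be called particular to SNHG12. On the assignment of reads to transcripts the sources used here give nothing.

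The gene TRNAU1AP, which lies on the opposite strand and overlaps SNHG12, was at 19.5, 16.7 and 20.5 CPM after knockdown against 22, 21.6 and 19.2 CPM in the controls. Its groups overlapped, and its log2 fold change was -0.15 (edgeR, adjusted p 0.661). The strand setting of the counting is unknown here, so reads within an overlap of genes may not be told apart. The annotated overlap of SNHG12 with TRNAU1AP runs only from 28578538 to 28578545, at the 3′ ends of both. The small RNAs held by SNHG12 are shown because they are what the introns of the member that rose encode. They are 3 of the box H/ACA kind (names in SNORA), which guide pseudouridylation, and 1 of the box C/D kind (SNORD), which guides methylation. They are read 5′ to 3′ on the minus strand from GENCODE 29 on GRCh38, with capitals for the ACA box near the 3′ end or the D box CTGA. SNORD99 is at chr1:28578749-28578822, SNORA61 at chr1:28579764-28579893, SNORA44 at chr1:28580381-28580512 and SNORA16A at chr1:28580920-28581056.
SNORD99: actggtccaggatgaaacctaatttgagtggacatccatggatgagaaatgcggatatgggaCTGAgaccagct
SNORA61: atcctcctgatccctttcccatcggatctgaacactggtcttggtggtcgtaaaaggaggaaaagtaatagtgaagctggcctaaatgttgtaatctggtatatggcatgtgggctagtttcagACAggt
SNORA44: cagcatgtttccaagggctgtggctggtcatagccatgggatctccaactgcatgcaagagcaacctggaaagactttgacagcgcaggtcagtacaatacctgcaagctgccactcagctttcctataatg
SNORA16A: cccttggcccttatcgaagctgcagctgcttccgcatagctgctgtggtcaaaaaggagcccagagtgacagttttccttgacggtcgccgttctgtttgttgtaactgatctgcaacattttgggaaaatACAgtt
In SNORA61 and SNORA16A the ACA box stands 3 bases before the 3′ end. In SNORA44 this box was not found near the end of the annotated sequence. The counts of these rows were too few to say whether the snoRNAs moved with their host: SNORD99 had 10, 8 and 16 counts against 3, 7 and 4, and the other SNHG12 rows had at most 9 counts in any library.

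GAS5 (chromosome 1, 173863900 to 173868882, minus strand) was the most abundant member. It stood at 153, 162 and 164 CPM after knockdown against 180, 237 and 223 CPM in the controls. All knockdown libraries were below all controls, and the spread of the knockdown libraries was the narrower. The log2 fold change was -0.42 with an SE of 0.13, which did not pass (edgeR, adjusted p 0.188). In deposited TPM the groups did overlap, at 381, 439 and 429 against 430, 497 and 514. The log2 fold change of GAS5 on that scale was -0.20, beside the upward-shifted median of 0.21 over all genes.

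ZFAS1 (chromosome 20, 49278178 to 49295738, plus strand), a host whose name comes from its position antisense to ZNFX1, was at 104, 115 and 101 CPM after knockdown against 126, 169 and 136 CPM in the controls. Again no control library was as low as any knockdown library. The log2 fold change was -0.43 with an SE of 0.14 (edgeR, adjusted p 0.199), and -0.30 without control library 2, the highest of the 6. In deposited TPM the ZFAS1 groups overlapped, at 278, 245 and 234 against 274, 378 and 309, with a log2 fold change of -0.33 beside 0.21 for the median gene. ZNFX1 itself, whose product is a helicase-domain zinc finger protein, was at 200, 192 and 184 against 190, 140 and 170 CPM (log2 fold change 0.20, edgeR, adjusted p 0.493).

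The 3 snoRNAs of ZFAS1 belong to the SNORD12 group and are shown to make their likeness visible. They are read 5′ to 3′ on the plus strand from GENCODE 29 on GRCh38, with the C box (ATGATGA or TGATGA) and the D box (CTGA) in capitals. SNORD12C is at chr20:49278940-49279028, SNORD12B at chr20:49280319-49280409 and SNORD12 at chr20:49280683-49280772.
SNORD12C: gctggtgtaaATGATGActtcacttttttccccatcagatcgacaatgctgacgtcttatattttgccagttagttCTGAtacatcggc
SNORD12B: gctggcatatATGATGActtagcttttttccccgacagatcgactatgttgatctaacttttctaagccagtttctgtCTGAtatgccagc
SNORD12: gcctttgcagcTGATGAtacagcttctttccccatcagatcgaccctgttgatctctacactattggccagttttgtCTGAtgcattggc
In each the D box ends 9 bases before the 3′ end, and the longest run found in all 3 is 9 bases, cagatcgac. SNORD12 had 40, 26 and 34 counts after knockdown against 42, 21 and 16 in the controls, and SNORD12B had 21, 28 and 22 against 19, 11 and 23. The groups overlapped for both, with log2 fold changes of 0.26 and 0.37 (edgeR, adjusted p 0.796 and 0.681).

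SNHG15 (chromosome 7, 44983023 to 44986961, minus strand), the host of SNORA9, was at 18.7, 16 and 27.1 CPM after knockdown against 32.9, 27.4 and 33.3 CPM in the controls. Knockdown library 3 and control library 2 were nearly level, so the groups were barely apart. The log2 fold change was -0.60 with an SE of 0.21 (edgeR, adjusted p 0.224). On the TPM scale SNHG15 was at 35.0, 32.7 and 42.6 against 46.9, 41.9 and 46.8, where the groups overlapped. Its log2 fold change there was -0.30, beside 0.21 for the median gene.

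SNHG26 (chromosome 7, 22854178 to 22861579, plus strand), the host of SNORD93, was at 3.88, 6.3 and 6.41 CPM after knockdown against 3.64, 3.38 and 3.46 CPM in the controls. Knockdown library 1 stood close to the controls and the other two were well above them. The log2 fold change was 0.66 with an SE of 0.24 (edgeR, adjusted p 0.227). SNHG21, which holds SCARNA15, a small RNA of the Cajal body, was at 3.12, 3.47 and 3.87 against 2.83, 2.73 and 1.54 CPM. Its log2 fold change, 0.56 (edgeR, adjusted p 0.350), was 0.32 without control library 3. A longer gene row on the same strand, also named SCARNA15, overlaps SNHG21 and can share its reads. It was at 1.32, 2.53 and 2.54 against 1.63, 1.64 and 2.41 CPM, with control library 3 the highest control. What part the assignment of reads between them had was not tested. EPB41L4A-AS1, the host of SNORA13, was at 14.9, 16.5 and 16.3 against 12.4, 13.5 and 14 CPM. Its groups did not overlap, but the difference was small, with a log2 fold change of 0.25 and a standard error of 0.14 (edgeR, adjusted p 0.406).

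**Figure D2:**
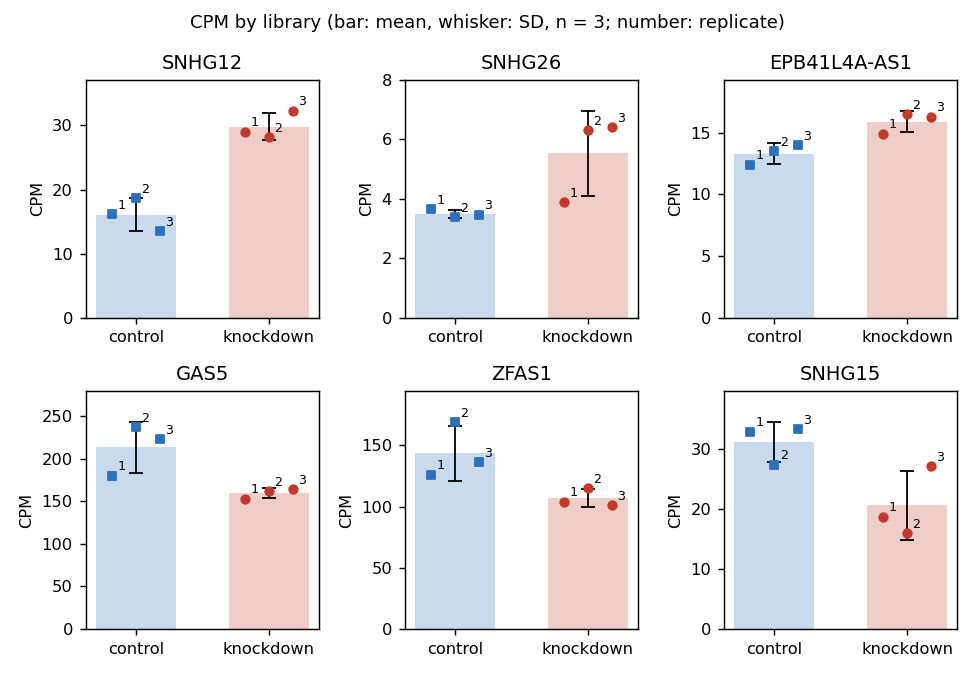
CPM of 6 host genes in each library (points, numbered by replicate), with group means (bars) and SD (whiskers, n = 3 per group); the vertical axes start at 0 and differ between panels. SNHG12, SNHG26 and EPB41L4A-AS1 are higher in all knockdown libraries, and GAS5, ZFAS1 and SNHG15 are lower in all of them; among these, SNHG12 passed the test.

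The remaining abundant hosts were close between the groups. SNHG1, the host of a series of box C/D snoRNAs from SNORD22 to SNORD30, was at 81.2, 85.4 and 87.3 CPM after knockdown against 79.4, 108 and 76.4 CPM in the controls, with a log2 fold change of -0.05 and a standard error of 0.15. SNHG7, which holds SNORA17A and SNORA17B, was at 94.3, 73.9 and 86.3 against 76.8, 96.2 and 80.6 CPM (0.01, standard error 0.14). SNHG3, which holds SNORA73A and SNORA73B, was at 34.9, 38.2 and 36.3 against 35.3, 38.7 and 34.4 CPM, with a log2 fold change of 0.01. Its standard error of 0.12 was the smallest of the members.

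SNHG6, the host of SNORD87, was at 49.0, 52.6 and 45.7 CPM after knockdown against 45.2, 71.1 and 54.9 CPM in the controls. SNHG5, the host of SNORD50B, was at 19.2, 22.3 and 22.1 against 21.0, 28.4 and 26.0 CPM. SNHG17, the host of SNORA71 copies, was at 17.1, 18.9 and 20.7 against 21.7, 26.9 and 20.5 CPM. Their log2 fold changes were -0.22, -0.24 and -0.29, and in each the groups overlapped (edgeR, adjusted p 0.576, 0.485 and 0.414).

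SNHG8, the host of SNORA24, was at 27.8, 28.7 and 35.0 CPM after knockdown against 27.4, 35.8 and 32.9 CPM in the controls. SNHG4, the host of SNORA74A, was at 21.0, 27.1 and 25.1 against 22.6, 19.7 and 23.8 CPM. DANCR, which holds SNORA26 and is named for its part in keeping cells undifferentiated, was at 15.1, 18.9 and 18.8 against 15.2, 19.3 and 15.6 CPM. SNHG19, the host of SNORD60, was at 14.4, 13.3 and 16.7 against 12.6, 16.6 and 11.8 CPM. The log2 fold changes of these 4 ran from -0.07 for SNHG8 to 0.15 for SNHG4, with overlapping groups throughout.

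Of the scarcer hosts, SNHG11, SNHG18, SNHG10 and SNHG9 had group means between 2.24 and 9.12 CPM and log2 fold changes of 0.08, 0.15, 0.19 and -0.24, with overlapping groups. SNHG25 and MIR17HG had group means below 1 CPM, and their standard errors of 0.51 and 0.63 leave their log2 fold changes of -0.79 and 0.28 undetermined. MIR17HG had 12, 52 and 47 counts against 49, 26 and 12, and the rows of its 6 microRNA hairpins had at most 3 counts in any library. SNHG22 had 6, 8 and 8 counts against 7, 5 and 6. SNHG14, the long transcript antisense to UBE3A that carries the SNORD115 and SNORD116 arrays of the imprinted Prader-Willi region, had 8, 11 and 2 counts against 8, 6 and 6. UBE3A itself was at 33.1 to 42.7 CPM.

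Levels of different genes were compared in deposited TPM, which corrects for length. GAS5 led with 448 ± 49.1 TPM (SD over all 6 libraries), followed by ZFAS1 with 287 ± 52.1. These were apart from each other and from the rest in every library, since the lowest GAS5 value was 381, the highest of ZFAS1 was 378 and its lowest 234, and no other member exceeded 199. SNHG1 (176 ± 17.2), SNHG6 (172 ± 23.6) and SNHG7 (157 ± 18) followed and overlapped each other. SNHG8 came next with 99.3 ± 14.4, between 85.5 and 126 and so below every value of SNHG7. From SNHG5 (76.0 ± 8.12) to SNHG3 (28.1 ± 4.26) neighbouring genes overlapped, and the lowest were SNHG22 at 0.339 ± 0.127 and SNHG14 at 0.147 ± 0.151 TPM. In this order SNHG12 had rank 10, with 70.7 ± 5.36 TPM in the knockdown libraries and 30.3 ± 2.73 in the controls (SD, n = 3).

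**Figure D3:**
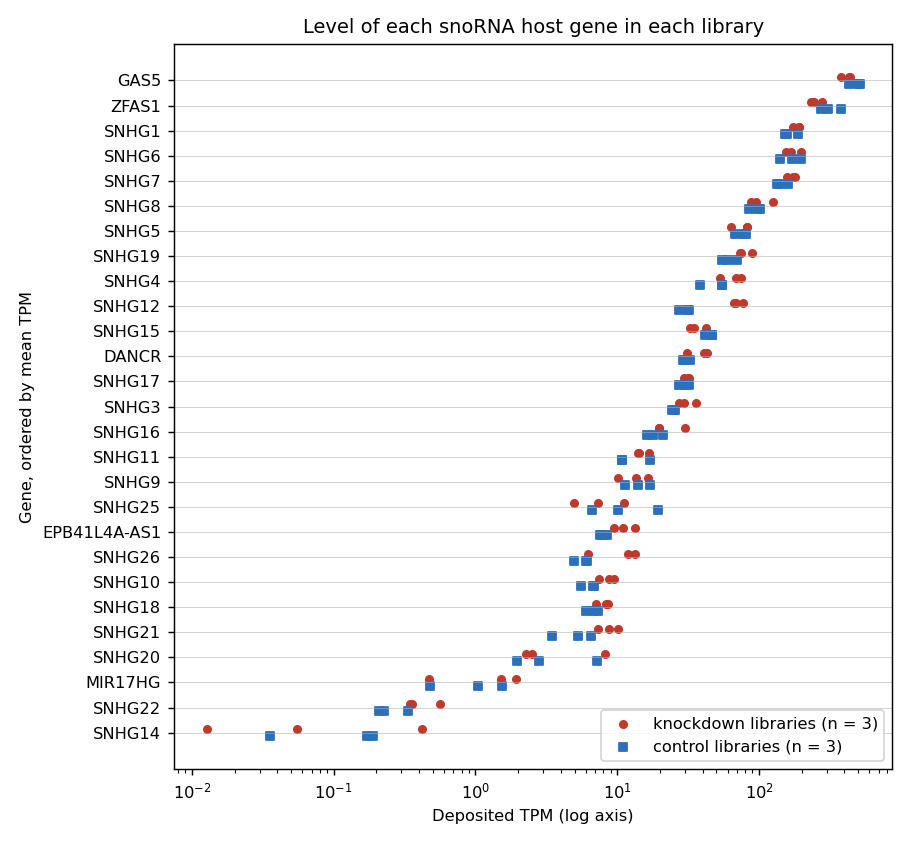
Deposited TPM of each of the 27 genes in each of 6 libraries (log axis; circles, knockdown; squares, control), ordered from the highest mean at the top. GAS5 lies between 381 and 514 TPM at the top, SNHG14 between 0.0127 and 0.417 TPM at the bottom, and the circles of SNHG12, from 66.7 to 76.8 TPM, lie clear of its squares, from 27.2 to 32.3.

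Shares of the host RNA pool were also apart between the groups, but they largely restate the lower values of GAS5 and ZFAS1. GAS5 held 19.95%, 20.96% and 20.74% of all counts assigned to the 27 genes after knockdown against 23.14%, 24.01% and 26.23% in the controls, with no overlap. The 3 genes of highest TPM, GAS5, ZFAS1 and SNHG1, together held 47.4%, 46.6% and 45.3% of the members' TPM after knockdown against 51.9%, 54% and 53.4% in the controls. These shares do not depend on how libraries are scaled to each other. They were looked at after the values of GAS5 and ZFAS1 were known and are given with no test.

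**Figure D4:**
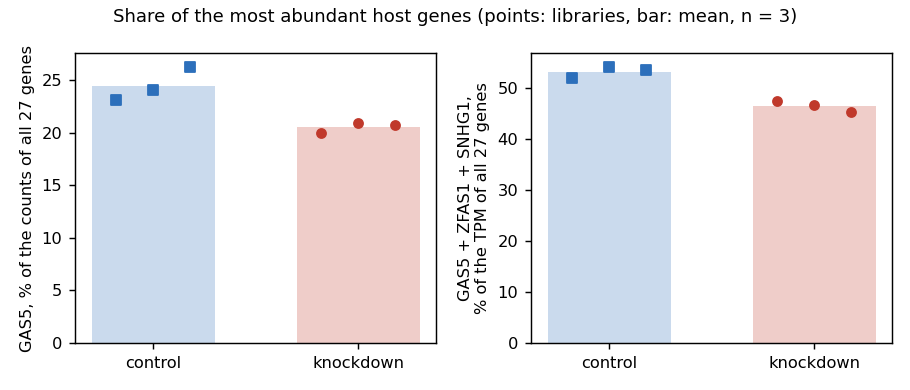
Left, GAS5 as a percentage of the counts of all 27 host genes; right, GAS5, ZFAS1 and SNHG1 together as a percentage of their TPM (points, libraries; bars, means, n = 3 per group; axes start at 0). In both panels all 3 knockdown points lie below all 3 control points, at 19.95% to 20.96% against 23.14% to 26.23% on the left.

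In 2 places single libraries stood apart from their own group. SNHG20 was at 8.0 CPM in knockdown library 1 and 9.24 CPM in control library 2, while the other four lay from 1.38 to 2.35 CPM. Its log2 fold change of -0.21 therefore had a standard error of 0.78, and was 0.93 without control library 2. SEC14L1, which begins at the same base as SNHG20 on the same strand and so can share its reads, was at 51.4 to 73.1 CPM. SNHG16, the host of SNORD1A, SNORD1B and SNORD1C, was at 33.3, 20.5 and 17.3 CPM after knockdown against 21.7, 20.6 and 20.7 CPM in the controls. Its log2 fold change of 0.18 became -0.20 without knockdown library 1, the library that was high.

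The same 2 libraries were the lowest at a neighbour of GAS5, though not clearly apart. ZBTB37, on the opposite strand and overlapping GAS5, was at 1.21 CPM in knockdown library 1 and 0.744 CPM in control library 2. It was at 3.17 CPM in control library 3 and at 8.58 to 16 CPM in the rest. A gene opposite SNHG16, AC015802.6, took yet another pattern, with 27.2 to 36.4 CPM in knockdown library 3 and control libraries 2 and 3 and 2.11 to 3.49 CPM in the rest. What part the assignment of reads between overlapping genes had in these levels was not tested. Without knockdown library 1 and control library 2 together, 0 members passed with edgeR, and the log2 fold changes of SNHG12, GAS5 and ZFAS1 were 1.01, -0.32 and -0.30 (adjusted p 0.125 for SNHG12).

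**Figure D5:**
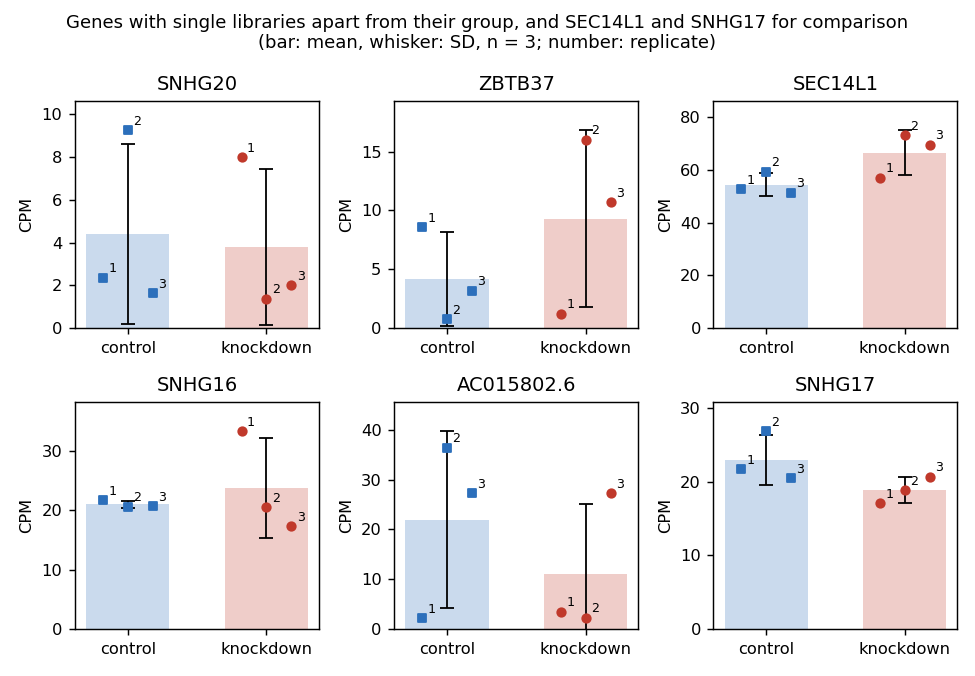
CPM in each library (points, numbered by replicate) of SNHG20 and SNHG16, of neighbouring genes of members (ZBTB37, SEC14L1 and AC015802.6), and of SNHG17 (SEC14L1 and SNHG17 for comparison), with group means (bars) and SD (whiskers, n = 3 per group); axes start at 0 and differ between panels. Knockdown library 1 and control library 2 are the high points of SNHG20 and the low points of ZBTB37.

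Some members share a starting region with a gene read the other way. SLC3A2, which encodes the heavy chain of amino acid transporters, begins 188 bases from SNHG1. It was at 340, 285 and 358 CPM after knockdown against 207, 234 and 237 CPM in the controls, with a log2 fold change of 0.53, which did not pass (edgeR, adjusted p 0.103). SNHG1 itself had -0.05, with overlapping groups. SEMA5A, a semaphorin gene that begins 125 bases from SNHG18, was at 54.2, 64.4 and 51.4 against 47.5, 33.8 and 41.7 CPM (0.47, edgeR, adjusted p 0.224), beside 0.15 for SNHG18. RPS2, a ribosomal protein gene that begins 99 bases from SNHG9, had -0.40 (edgeR, adjusted p 0.361), beside -0.24 for SNHG9. TRAF7, which begins 340 bases from SNHG19, had -0.21 (edgeR, adjusted p 0.474), beside 0.12 for SNHG19. The difference between the members of these pairs was not tested.

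The table held 136 snoRNA and scaRNA rows inside 25 of the members, 84 of them inside SNHG14. GAS5 and MIR17HG held 0 such rows, so the snoRNAs of GAS5, the most abundant member, were not examined. Of these 84 rows, 83 were at 0 in all libraries. Of the 52 rows in the other hosts, 14 stood at exactly 1 count in every library, the reason for which is not given, and 14 passed the filter. By edgeR 0 of the rows passed the test, 0 had an unadjusted p under 0.05, and DESeq2 called 0. The highest count of any row was 54, for a SNORD22 row of SNHG1 that had 36, 49 and 33 counts against 54, 45 and 53. SNORD30, in the same host, had 12, 8 and 13 against 18, 12 and 20 (log2 fold change -0.68, edgeR, adjusted p 0.452). A SNORA17 row of SNHG7 had 42, 1 and 2 counts against 1, 34 and 35, with a second annotated copy at the same place. Besides these and the SNORD12 and SNORD12B rows of ZFAS1 given above, 9 rows had a mean of at least 10 counts. Their log2 fold changes ran from -0.56 for SNORD104 of SNHG25 to 0.24 for SNORA24 of SNHG8, and the others were SCARNA13 of SNHG10, SNORA71A, SNORA71B and SNORA71C of SNHG17, SNORA50C of SNHG25, SNORA73B of SNHG3 and SNORA17B of SNHG7. The SEs of the 14 tested rows ran from 0.30 for SNORD22 to 1.24 for the SNORA17 row, so small changes could not be seen at these counts.

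The beginnings of the host genes were searched for a pyrimidine tract, because ribosomal protein genes share one. The search asked for a C followed by pyrimidines over at least 5 bases in all, beginning within 5 bases of the start annotated by RefSeq on GRCh38.p14, on the gene's own strand. RefSeq starts were matched by symbol for 23 of the 27 members. Of these, 12 (52.2%) held such a tract, beside 21.1% of 35116 promoters of all genes, 69.8% of 86 promoters of cytosolic ribosomal protein genes and 28.5% of 277 promoters of other protein-coding snoRNA hosts. Windows of 40 bases, from 15 before the start, are shown for the member that rose, for the 2 most abundant members and for the 2 other members with the longest tracts, with the tract in capitals. SNHG12 is at chr1:28581849-28581888 (minus strand), ZFAS1 at chr20:49278627-49278666 (plus strand), GAS5 at chr1:173869021-173869060 (minus strand), SNHG4 at chr5:139274086-139274125 (plus strand) and SNHG18 at chr5:9546185-9546224 (plus strand).
SNHG12: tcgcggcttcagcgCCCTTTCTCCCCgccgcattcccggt
ZFAS1: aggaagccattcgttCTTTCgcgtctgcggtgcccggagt
GAS5: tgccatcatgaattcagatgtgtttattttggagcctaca
SNHG4: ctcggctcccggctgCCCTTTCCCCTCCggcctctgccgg
SNHG18: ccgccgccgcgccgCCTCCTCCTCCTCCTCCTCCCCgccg
The tract was 12 bases long in SNHG12, 5 in ZFAS1, 13 in SNHG4 and 22 in SNHG18, where it is a repeated run of CCT, and GAS5 had none in this window. Of the 12 members with a tract 8 had log2 fold changes above 0 and 4 below, from -0.43 for ZFAS1 to 0.89 for SNHG12, with a median of 0.10. The 9 tested members without one ran from -0.42 for GAS5 to 0.66 for SNHG26, with a median of 0.08. The RefSeq start of GAS5 lies 163 bases upstream of the start in the table, and that of SNHG12 lies 1110 bases downstream. Those of ZFAS1 and SNHG20 lie 464 and 1927 bases downstream. These windows need not be the starts used in PC9. The division into members with and without a tract, GAS5 included, therefore holds for the RefSeq starts only.

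Beside the members stand other genes that carry snoRNAs. Of 28 snoRNA-hosting ribosomal protein genes tested, all were below 0 (median -0.44 on the log2 scale), and 0 passed with edgeR (25 lower at an unadjusted p under 0.05, and 10 called by DESeq2). RPS3 was at 730, 609 and 708 CPM after knockdown against 938, 1220 and 1030 CPM in the controls (log2 fold change -0.64; edgeR, adjusted p 0.0663), with no overlap, and RPS12 had -0.63. Of the members, GAS5 and ZFAS1 had -0.42 and -0.43, SNHG1 and SNHG7 had -0.05 and 0.01, and the median was 0.01. Over all 85 cytosolic ribosomal protein genes tested the median was -0.41, and 0 passed with edgeR (1 higher and 70 lower at an unadjusted p under 0.05, and 18 called by DESeq2), with RPL36 at -0.72. Over all genes, 6.71% were lower at an unadjusted p under 0.05 with edgeR, and DESeq2 called 3.69%. The share among genes as abundant as these (median 9.69 log2 CPM) was not examined. Of 204 other protein-coding snoRNA hosts tested, 1 rose and 0 fell, and their median was 0.01. The 1 was TEX14, a gene of germ-cell intercellular bridges, from 0.324 ± 0.0206 to 1.45 ± 0.0508 CPM (SD, n = 3; log2 fold change 2.15, edgeR, adjusted p 0.0167). TAF1D, a subunit gene of the RNA polymerase I selectivity factor, was at 27.4, 47.5 and 36.4 against 23.7, 25.1 and 26.2 CPM, which did not pass (edgeR, adjusted p 0.225). The read-through genes SENP3-EIF4A1 and PPAN-P2RY11 had -1.38 and -0.57, with uncertain counts, since they overlap their parent genes. Of 2785 long noncoding RNA genes outside the members, 52 rose and 0 fell, with a median of 0.30 at a median abundance of -0.12 log2 CPM, where the members' was 4.39. Long noncoding RNA genes of at least 2 log2 CPM, 416 in all, had a median of 0.14.

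The proteins that make snoRNAs into working particles were examined in lists of box C/D and box H/ACA core proteins and of assembly factors. Of 4 box C/D core genes 0 passed with edgeR, 2 were lower at an unadjusted p under 0.05, and DESeq2 called 1, SNU13. SNU13, which encodes the protein that first binds the box C/D motif, was at 70.2, 54.6 and 65.7 CPM after knockdown against 113, 80.6 and 107 CPM in the controls (log2 fold change -0.66; edgeR, adjusted p 0.123). FBL, the methyltransferase fibrillarin, was at 182, 128 and 166 against 220, 228 and 206 CPM (-0.46, edgeR, adjusted p 0.194). NOP56 was also lower without overlap (-0.22), while NOP58 was at 27.2, 51.5 and 47.8 against 30.8, 35.2 and 34.6 CPM (0.33). The 4 box H/ACA core genes all had log2 fold changes below 0, from -0.31 for NHP2 to -0.18 for DKC1, the pseudouridine synthase dyskerin, and GAR1. Of these 4, 0 passed with edgeR or DESeq2 and 1 was lower at an unadjusted p under 0.05. Of 10 assembly factors 0 passed with either, and 1 was lower at an unadjusted p under 0.05; the largest differences were ZNHIT3 (-0.44), PIH1D1 (-0.41) and RPAP3 (0.39).

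Factors that act on the spliced host RNAs were examined in the same way. Of 10 nonsense-mediated decay factors 0 passed with edgeR, 0 had an unadjusted p under 0.05, and DESeq2 called 0. UPF1, the central helicase of this decay, was at 203, 161 and 185 CPM after knockdown against 183, 167 and 190 CPM in the controls (log2 fold change 0.02, standard error 0.13). SMG8, a subunit of the kinase complex that phosphorylates UPF1, was at 26.0, 28.2 and 25.6 against 5.21, 25.7 and 8.59 CPM; control library 2 alone stood level with the knockdown libraries, and without it SMG8 passed. SMG1, the kinase itself, had 0.38 (edgeR, adjusted p 0.390). Of 5 exon junction complex genes 0 passed with edgeR or DESeq2, with 0 at an unadjusted p under 0.05 and a median of -0.14. MAGOH, EIF4A3 and CASC3 had -0.17, -0.16 and -0.14. Of 11 regulators of mRNAs with a 5′ terminal pyrimidine tract 0 passed with either tool and 0 had an unadjusted p under 0.05. LARP1, which binds such tracts, had 0.10, and EIF4EBP1, RPS6KB1 and SSB had -0.34, 0.29 and 0.16.

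MYC, a transcription factor that drives ribosome production and binds the MIR17HG locus, was at 14.7, 11.3 and 37.9 CPM after knockdown against 17.1, 14.9 and 14.7 CPM in the controls, high in knockdown library 3 only. Of the 3 MYC family genes tested 0 passed with edgeR or DESeq2, with 1 higher and 1 lower at an unadjusted p under 0.05. These were MYCL, at 7.42, 8.65 and 6.86 against 5.29, 5.21 and 4.79 CPM, and MAX, the partner of MYC, at 24.6, 24.2 and 38.1 against 38.4, 42.6 and 52.5 CPM. MYCN was at 0 counts in every library.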

How the data were processed

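Per the labels' protocols, the authors sequenced 6 PC9 libraries, 3 per group, on Illumina Xten, checked read quality, mapped the reads and counted them by gene; the submitters' processing notes name hg19, while 96.9% of 57836 genes shared with GENCODE 29 had identical GRCh38 coordinates in the table. For aligner, counter and strand setting the sources used here give nothing. Counts, TPM and FPKM are the authors' deposited values; deposited TPM gave levels between genes, and deposited FPKM with counts gave implied lengths, scaled on genes of 1 transcript with at least 100 counts.

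Low genes were removed by filterByExpr (minimum 10 counts), and totals were TMM-scaled. Tests ran over all 19040 genes left with edgeR 4.0.16 in R 4.3.3 (quasi-likelihood F-test, Benjamini-Hochberg adjustment); standard errors come from the fold change and F statistic. CPM use the TMM-scaled totals. In simulated data of 19040 genes, 10% of 1.5-fold, 72% of 2-fold and 98% of 3-fold changes among genes above 3 log2 CPM were recovered (50 genes at each fold, 14 unchanged genes called). Libraries of a group differed from each other by a chi-square of 33.6 to 85.3 per degree of freedom. Each was treated as 1 sample, but this spread does not show that libraries are from separate cultures. Deviations of same-numbered libraries correlated at 0.0083, -0.079 and -0.026, so no pairing by number was seen, which does not exclude one.

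Members and lists were chosen with earlier results of these data known. Every member is named; values in every library are given for members of at least 10 CPM, those past the test and some others chosen after their values were seen (SNHG26, SNHG21, SNHG20). Named from the lists were genes past the test and up to 3 others of at least 10 CPM with the largest differences, of which some are not reported here; UPF1, LARP1, NOP56, GAR1 and MYCL were added after their values were seen. snoRNA rows with a mean of at least 10 counts are named; the MIR17HG, SNHG12 and SNHG14 rows were added. Of neighbouring genes of at least 1 CPM, those named were chosen after their values were seen. Alternatives were other scalings, filters, DESeq2 1.42.0, limma-voom (limma 3.58.1), the replicate block and leaving out each library. The labels give no batch. Sequences are from GENCODE 29 and RefSeq. Figures used matplotlib 3.10.9 in Python 3.11.15.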

Additional observations from a re-analysis of the deposited data

How the results depend on the processing

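The alternatives using the deposited TPM (log2 of TPM plus 1, tested with limma) or leaving out knockdown library 1 with control library 2 were chosen after the data were seen. The 223 genes past the test (209 higher, 14 lower) became 701 with DESeq2 (483 higher, 218 lower), 397 with TPM, 143 at a minimum of 50 counts, 147 without a filter, 34 with the replicate block (all higher), 75 without the library pair and 64 to 114 without 1 library. The count of 1 member became 0 with DESeq2 size factors, no filter, the replicate block (log2 fold change of SNHG12 0.90, adjusted p 0.181), the library pair, and each library left out (0 in every case); it stayed 1 in the other 6 settings. No pairing of libraries by number was seen, but the labels do not settle it. From the short lists, DESeq2 called 1 gene (SNU13), and SMG8 was the 1 gene without control library 2 (range 0 to 1 over the libraries left out) and without the library pair. The member median of 0.01 was 0.21 with TPM (0.21 over all genes) and 0.14 when scaled by library size alone (0.17 over all genes); it was 0.06 without the library pair and -0.05 to 0.10 without 1 library. Of 25 members followed, 15 kept their sign in each of the 16 alternatives that gave a value for them. The cause of each change was not tested.

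Signs that turned belonged to members not past the test on either side. SNHG1 was 0.17 with TPM, 0.08 with library size, 0.14 without the pair and 0.12 without control library 2; SNHG8 was 0.10, 0.06, 0.06 and 0.01 in the same settings. SNHG6, SNHG17 and SNHG20 were 0.04, 0.05 and 0.07 with TPM. SNHG7 and SNHG3 were both -0.02 with DESeq2 and its size factors, and ran from -0.12 to -0.01 and from -0.03 to -0.0025 in the single-library settings that turned them. SNHG16 was -0.18 without the pair. Over the libraries left out in turn, SNHG1 ran from -0.15 to 0.12, SNHG16 from -0.20 to 0.36, SNHG11 from -0.04 to 0.28, SNHG20 from -1.41 to 0.93 and MIR17HG from -0.20 to 0.82. With 3 libraries per group, 10% of simulated 1.5-fold changes were recovered, so changes of that size in hosts would mostly go undetected.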
